A study of Mus musculus with 2 samples.

Results

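The members are 10 microRNA genes known as markers of particular blood or liver lineages, out of 2202 microRNA genes in the GENCODE vM21 annotation of the mouse genome build mm10 (GRCm38). They were chosen by name: Mir144 and Mir451a for red cells, Mir142 for blood cells in general, Mir223 for myeloid cells, Mir150 and Mir155 for lymphoid cells, Mir126a and Mir221 for progenitors and endothelium, Mir122 for hepatocytes, and Mir22 as a broadly expressed gene that is also active in red cell precursors. For each, all DNase-seq peaks within 10 kb of the annotated hairpin were taken, in each library, with their values, footprints and stretches of significant cleavage. Mir144 and Mir451a lie side by side and share the same peaks, so the 10 genes stand for 9 loci.

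DNase-seq finds open chromatin from the places where the nuclease DNase I cuts DNA, and was applied here to embryonic liver, an organ that makes red cells before birth. Both libraries belong to a single group: liver of mouse embryos at 13.5 days, strain C57BL/6N,129, with both an LCR deletion and a globin mutation that the labels call HET. The 2 samples are biological replicates 1 and 2, 2 biosamples under 1 donor identifier, and the sex was not collected. The labels do not spell out LCR or HET, and no control group belongs to the series, so nothing below shows an effect of the genotype.

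A microRNA gene is transcribed into a long primary transcript from which Drosha and its partner Dgcr8 cut a hairpin. Dicer then frees a mature strand, whose seed guides an Argonaute protein to target messages. Because the hairpin can lie far from the start of its primary transcript, open chromatin at the transcript's start or at enhancers, and not at the hairpin, is where regulation of the gene is usually looked for. The miR-144 and miR-451a pair is a textbook target of GATA1 in red cells, and miR-451a is processed by Ago2 without Dicer. miR-142 is found throughout the blood system, miR-223 in granulocytes and monocytes, miR-126a in endothelium and stem cells, and miR-122 in hepatocytes.

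The mature strands of members with peaks are given first, because they show which regulators are at stake, with the seed (bases 2 to 8) in capitals. The sequences are from RefSeq (GRCm38.p6), which matched 9 of the 10 members, and Mir122 is named only. For Mir150 and Mir126a only the 3p strand was available, so no 5p strand or seed of theirs is given or counted.
miR-144-3p: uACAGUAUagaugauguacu
miR-451a: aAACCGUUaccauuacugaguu
miR-142a-5p: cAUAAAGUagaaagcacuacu
miR-142a-3p: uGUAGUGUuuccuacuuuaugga
miR-22-3p: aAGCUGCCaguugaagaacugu
miR-126a-3p: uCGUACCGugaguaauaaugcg
miR-150-3p: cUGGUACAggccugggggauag
The members without a peak are represented by these strands.
miR-223-3p: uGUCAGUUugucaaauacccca
miR-155-5p: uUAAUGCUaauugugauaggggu
miR-221-3p: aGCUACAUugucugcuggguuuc
The 15 mature strands of the 9 matched members carried 15 distinct seeds, so no 2 of them form a seed family.

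The results turn on a few open sites upstream of the erythroid, blood-wide and broad members, and these are printed as the plus strand of GRCm38.p6, which is also the strand of the genes. Each is the interval of a replicate 1 peak, and capitals mark the footprints of replicate 1, short protected stretches inside the open site.
Mir144 and Mir451a, 6935 bases upstream, chr11:78065941-78066200: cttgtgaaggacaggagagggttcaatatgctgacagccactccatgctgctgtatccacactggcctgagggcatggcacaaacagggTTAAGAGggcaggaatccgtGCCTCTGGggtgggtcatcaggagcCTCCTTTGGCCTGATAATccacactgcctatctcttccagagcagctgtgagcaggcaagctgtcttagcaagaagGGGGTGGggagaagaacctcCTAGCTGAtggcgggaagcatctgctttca
Mir144 and Mir451a, 3145 bases upstream, chr11:78069721-78070000: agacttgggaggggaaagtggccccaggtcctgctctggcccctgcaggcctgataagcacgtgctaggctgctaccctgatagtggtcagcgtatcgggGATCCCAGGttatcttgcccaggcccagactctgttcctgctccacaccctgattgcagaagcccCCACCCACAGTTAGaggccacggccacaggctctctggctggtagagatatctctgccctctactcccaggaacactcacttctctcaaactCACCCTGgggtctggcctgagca
Mir144 and Mir451a, 385 bases upstream, chr11:78072501-78072740: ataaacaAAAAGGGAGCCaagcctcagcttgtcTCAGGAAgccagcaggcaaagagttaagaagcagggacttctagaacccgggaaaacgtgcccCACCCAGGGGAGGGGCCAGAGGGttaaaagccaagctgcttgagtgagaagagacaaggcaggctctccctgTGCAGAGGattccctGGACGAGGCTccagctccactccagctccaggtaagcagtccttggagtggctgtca
The blood-wide and broad members have these sites, of which those marked as starts include the annotated starts of the host transcripts Mir142hg and Mir22hg.
Mir142, 1334 bases upstream, start of Mir142hg, chr11:87755421-87755640: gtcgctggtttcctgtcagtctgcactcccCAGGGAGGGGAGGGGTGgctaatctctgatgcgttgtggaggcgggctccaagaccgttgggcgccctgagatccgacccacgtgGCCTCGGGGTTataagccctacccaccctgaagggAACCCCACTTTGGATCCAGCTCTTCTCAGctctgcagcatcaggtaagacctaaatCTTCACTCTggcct
Mir142, 7224 bases upstream, chr11:87749521-87749760: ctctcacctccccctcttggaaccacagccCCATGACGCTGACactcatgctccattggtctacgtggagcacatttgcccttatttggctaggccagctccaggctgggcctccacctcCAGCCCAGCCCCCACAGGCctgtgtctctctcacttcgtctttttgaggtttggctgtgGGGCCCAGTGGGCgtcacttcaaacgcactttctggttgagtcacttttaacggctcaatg
Mir22, 2176 bases upstream, start of Mir22hg, chr11:75461421-75461660: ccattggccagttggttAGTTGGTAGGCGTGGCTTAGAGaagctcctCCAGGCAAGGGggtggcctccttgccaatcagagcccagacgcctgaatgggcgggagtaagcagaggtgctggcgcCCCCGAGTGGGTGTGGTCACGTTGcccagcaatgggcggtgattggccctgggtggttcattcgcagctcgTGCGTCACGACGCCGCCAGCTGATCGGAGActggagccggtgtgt
Mir22, 646 bases upstream, chr11:75462981-75463160: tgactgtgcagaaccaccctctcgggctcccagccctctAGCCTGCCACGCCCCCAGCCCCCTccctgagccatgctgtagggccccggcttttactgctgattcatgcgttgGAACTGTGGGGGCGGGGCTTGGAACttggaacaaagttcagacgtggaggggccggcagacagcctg

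Replicate 1 had 47198 peaks and replicate 2 had 36523, with median values of 1.23 and 1.25. A peak's value is the authors' depth-normalised cleavage signal. If a step of these values is 1 read and the values are scaled to 1e6 reads, the depths were 81.2 and 72.1 times 1e6 reads. The 95% Poisson intervals below rest on the first of these assumptions and cover counting error only. Of all peaks, 64.4% of those in replicate 1 and 82.3% of those in replicate 2 overlapped a peak of the other library. The sources used here do not say how the authors scaled the libraries to each other, so values are given side by side. Promoter peaks in both libraries were found at 6 of 7 erythroid marker genes, among them Epor, Ank1 and Slc4a1, and at 5 of 6 progenitor, 2 of 6 endothelial, 1 of 7 myeloid, 1 of 7 hepatoblast and hepatocyte, and 0 of 4 lymphoid markers. Of the neuronal markers, which do not belong to this tissue, 2 of 3 had one, Snap25 (1.11 in replicate 1 and 1.12 in replicate 2) and Rbfox3 (1.10 and 0.499). Over all protein-coding genes the share with a promoter peak in both libraries was 53.1%. Among the hepatoblast and hepatocyte markers, Alb and Afp had no promoter peak. Apob had one in both libraries (0.875 in replicate 1 and 0.707 in replicate 2), and Foxa2 in replicate 1 alone (0.776). In whole tissue, fewer cells of a type and weaker opening per cell cannot be told apart.

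Members split into 6 with open chromatin nearby and 4 without. Mir144, Mir451a, Mir142, Mir150, Mir126a and Mir22 had a peak within 10 kb in both libraries, and Mir223, Mir155, Mir221 and Mir122 had no peak, no footprint and no stretch with a false discovery rate under 0.05 within 10 kb in either. Among all microRNA genes 33.4% had a peak within 10 kb in both libraries, 39.9% in replicate 1 and 34.4% in replicate 2. The same 6 members had a footprint within 10 kb in both libraries, against 30.4% of all microRNA genes. Counted as loci, it was 5 of 9, against 35.0% of 1802 microRNA loci. The members' count describes chosen genes and supports no statement about lineage microRNAs as a class. Peaks within 1000 bases of a protein-coding start made up 9 of the 27 member peaks in replicate 1 and 7 of 21 in replicate 2. Without them only Mir144, Mir451a, Mir142 and Mir22 kept a peak in both libraries, 4 of 10 members against 18.4% of all microRNA genes.

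**Figure D1:**
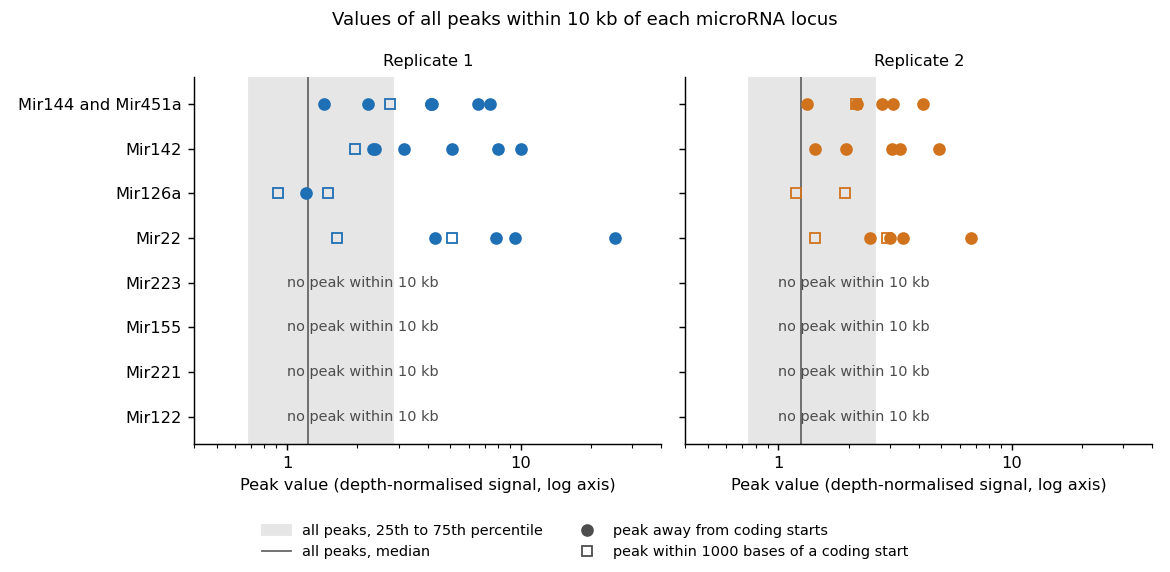
Values of every peak within 10 kb of each locus but Mir150, which is not drawn, on a log axis, replicate 1 on the left and replicate 2 on the right, 1 symbol per peak. Filled circles are peaks away from protein-coding starts, open squares those within 1000 bases of one, the grey band spans the 25th to 75th percentile of all peaks of the library and the line is their median. Of the loci drawn, Mir22 has the highest peak in each library, and 4 loci have no peak.

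The erythroid pair Mir144 and Mir451a had the most peaks of any member locus in replicate 1: 8 peaks in replicate 1 and 6 in replicate 2, of which 7 and 6 were shared. The hairpins lie at chr11:78073005-78073070 and chr11:78073170-78073241 on the plus strand, in no annotated host transcript. The highest site in replicate 1 was the intergenic one 3145 bases upstream of Mir144 printed above, with a value of 7.37 (6.79 to 7.98) in replicate 1 against 2.79 (2.41 to 3.20) in replicate 2. The site 385 bases upstream had 6.56 (6.01 to 7.14) in replicate 1 against 4.16 (3.70 to 4.66) in replicate 2. The intervals of these neighbours overlapped in replicate 1 and not in replicate 2, where the site next to the hairpin was the higher. The site 6935 bases upstream was lower in both, at 4.12 (3.69 to 4.58) in replicate 1 against 2.18 (1.85 to 2.55) in replicate 2.

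A narrow peak of replicate 1 alone, chr11:78072975-78073035, covered the start of the Mir144 hairpin with a value of 1.44 (1.19 to 1.73). In that library 31 of the 66 hairpin bases lay under a false discovery rate below 0.05, and in replicate 2 none did. No base of any other member's hairpin was listed in either library, and no footprint lay in a hairpin. The remaining peaks of the locus belong to Eral1, which encodes a GTPase needed to assemble the small subunit of the mitochondrial ribosome and runs on the minus strand towards the pair. Its last exons held peaks of 4.18 and 2.22 in replicate 1 and 3.09 and 1.33 in replicate 2. A further replicate 1 peak of 4.12 lay inside the wider one of 4.18, so 8 peaks are 7 separate sites, as many as at Mir142. The start of Eral1, 7365 bases downstream of the Mir144 start, had 2.76 in replicate 1 and 2.15 in replicate 2. Because these sites are the end and start of another gene, only the upstream sites and the hairpin peak lie outside protein-coding genes.

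Some footprints at the upstream erythroid sites held words of the kind that GATA and KLF factors bind. At the site 6935 bases upstream, a replicate 1 footprint contained the GATA word TGATAA whole, at positions 146 to 151 counted from the left of the printed sequence. Replicate 2 had 1 footprint in this interval, which overlapped another of the 5 in replicate 1. At the site 3145 bases upstream, the GATA words TGATAA at positions 52 to 57 and AGATAA, on the other strand, at 110 to 115 lay outside the footprints of replicate 1. The footprint near position 164 there held 6 bases of a KLF word (CCNCNCCC, a CACCC or GC box that KLF1, other KLF proteins and SP proteins share). It was overlapped by a replicate 2 footprint, which lay outside the replicate 2 peak of 60 bases. At the site 385 bases upstream, 2 of 5 replicate 1 footprints were overlapped in replicate 2. Among them was one that held 5 bases of the KLF word at positions 94 to 101 and the KLF word at 104 to 111 whole. In all, 22 footprints lay within 10 kb of the pair in replicate 1 and 20 in replicate 2, and 7 and 6 of them overlapped a footprint of the other library. Across the genome, 39.3% of replicate 1 and 55.8% of replicate 2 footprints did so.

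**Figure D2:**
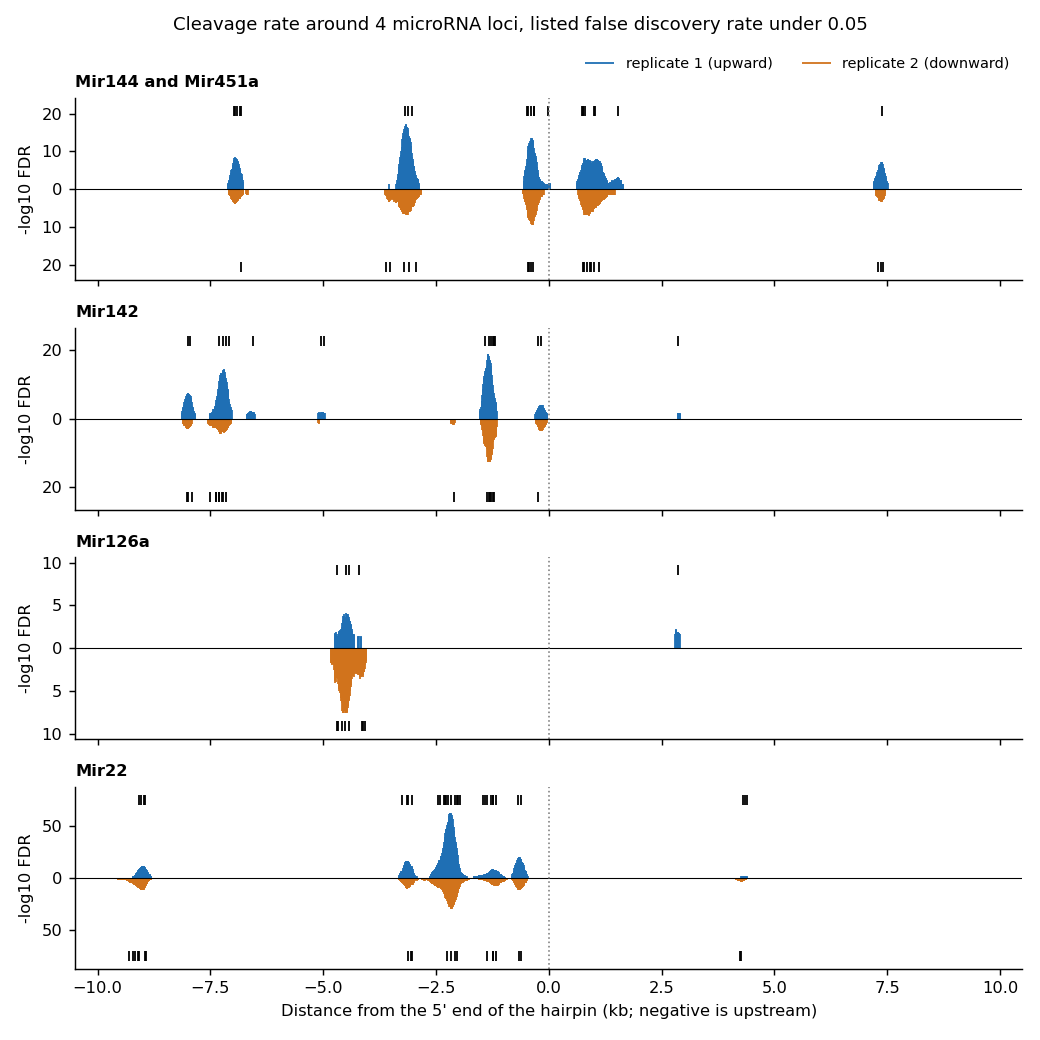
Significance of cleavage around the loci with peaks other than Mir150, as −log10 of the deposited false discovery rate, listed only under 0.05. Heights show significance and are not a measure of the cleavage rate. Replicate 1 points up and replicate 2 down, the x axis is the distance from the 5′ end of the hairpin (Mir144 for the pair) in kb, the dotted line is that end, and ticks above and below are footprints. Signal lies mostly upstream at Mir142 and Mir22 and on both sides at Mir144 and Mir451a, and at Mir126a it lies upstream in both libraries, with a small downstream stretch in replicate 1.

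Mir142, the blood-wide member, lies at chr11:87756864-87756927 on the plus strand inside the long non-coding RNA gene Mir142hg. It had 7 peaks in replicate 1 and 5 in replicate 2, with 4 shared in each. The highest was at the annotated start of Mir142hg, with 10.04 (9.37 to 10.8) in replicate 1 against 4.87 (4.37 to 5.40) in replicate 2, above 93.5% and 89.5% of all peaks. Of its 4 footprints in replicate 1, 3 were overlapped in replicate 2. Within 10 kb of Mir142, 9 of 18 footprints in replicate 1 and 11 of 19 in replicate 2 overlapped one of the other library. Across the genome, 39.3% of replicate 1 and 55.8% of replicate 2 footprints did so. A site just before the hairpin, chr11:87756581-87756820, had 3.18 in replicate 1 and 1.96 in replicate 2.

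A pair of intergenic sites lay farther upstream of Mir142. The one 7224 bases upstream had 7.96 (7.36 to 8.60) in replicate 1 against 3.33 (2.92 to 3.78) in replicate 2, and the one 7984 bases upstream had 5.09 (4.61 to 5.60) in replicate 1, beside 3.08 (2.69 to 3.51) in replicate 2. The order of these neighbours was the same in both libraries, but their intervals overlapped in replicate 2. At the nearer one all 3 footprints of replicate 1 were overlapped in replicate 2, but by footprints outside the replicate 2 peak. That peak spans 60 bases, against 240 in replicate 1. The printed site held KLF, RUNX (TGTGGTT) and NFE2 and AP-1 (TGANTCA) words, none inside a replicate 1 footprint. Peaks 6602 and 5036 bases upstream, with 2.38 and 2.34, were in replicate 1 alone, and both held the GATA word. Inside the one 5036 bases upstream, replicate 2 had 16 bases with a false discovery rate under 0.05, at lowest 0.0368, but no peak. A peak of 1.96 downstream, within 1000 bases of the start of Tspoap1, was also in replicate 1 alone. One of 1.44 at chr11:87754702-87754760 was in replicate 2 alone. Thus the 4 sites with a peak in both libraries were the 4 highest of the locus in each.

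Mir22 had the highest peak of the members in replicate 1 and the most footprints in both libraries. Its hairpin, chr11:75463716-75463810, is in the host transcript Mir22hg and also within an overlapping non-coding transcript of Tlcd2, a lipid-related membrane protein gene. All of its 6 peaks in each library were shared. The start of Mir22hg had 25.2 (24.2 to 26.4) in replicate 1 against 6.71 (6.13 to 7.34) in replicate 2, above 99.8% and 95.9% of all peaks. The site 646 bases upstream of the hairpin had 9.41 in replicate 1 and 3.41 in replicate 2, and the one 3126 bases upstream had 7.86 and 3.02. An intronic site 1246 bases upstream had 4.30 in replicate 1 and 2.48 in replicate 2. The other peaks were near the starts of coding genes: Wdr81, a trafficking factor gene, with 5.06 and 2.91, and the coding transcripts of Tlcd2, with 1.64 and 1.44. Mir22 had 31 footprints in replicate 1 and 22 in replicate 2, of which 10 and 11 overlapped a footprint of the other library. Across the genome, 39.3% of replicate 1 and 55.8% of replicate 2 footprints did so. At the Mir22hg start 3 of 4 replicate 1 footprints recurred, including one with a KLF word at positions 133 to 140. The replicate 2 counterpart of the rightmost of these footprints lay outside the replicate 2 peak.

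The lymphoid member Mir150, chr7:45121757-45121821, had 3 peaks within 10 kb in replicate 1 and 2 in replicate 2, all downstream of its hairpin and within 1000 bases of a protein-coding start. Among them was the start of Rpl13a, a gene of the large ribosomal subunit, with 14.4 (13.6 to 15.2) in replicate 1 against 5.50 (4.98 to 6.07) in replicate 2. With coding starts left out Mir150 had no peak at all. The other lymphoid member, Mir155 on chromosome 16, is the hairpin of the long non-coding gene Mir155hg and had no peak within 10 kb. In replicate 2 the nearest peak was 11200 bases away near the start of Mir155hg, with a low value of 0.513, and in replicate 1 the nearest was 20977 bases away, with a value of 10.99.

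Of the progenitor and endothelial members, Mir126a had low peaks and Mir221 none. Mir126a, chr2:26591357-26591429, sits in an intron of Egfl7, an endothelial secreted factor gene. An internal start of Egfl7 about 4607 bases upstream had 1.49 (1.24 to 1.78) in replicate 1 against 1.94 (1.63 to 2.29) in replicate 2. A neighbour 4191 bases upstream had 0.912 (0.716 to 1.15) in replicate 1 against 1.19 (0.954 to 1.47) in replicate 2. These were the only member peaks that were higher in replicate 2, although the intervals of each site overlap between the libraries. A peak of 1.21 in an intron of Agpat2 was in replicate 1 only. Mir221 on the X chromosome had its nearest peak 73514 bases away in replicate 1 and 90603 in replicate 2, with values of 0.308 and 0.319.

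The myeloid and hepatocyte members had no open chromatin within 10 kb. The nearest peak to Mir223 was 109297 bases away in replicate 1 and 107576 in replicate 2, with values of 0.493 and 0.305. The nearest to Mir122, on chromosome 18, was 181735 bases away in replicate 1 and 51877 in replicate 2, with 19.1 and 0.638. Absence from these lists means that no site passed the authors' threshold at this depth, and it is not a measurement of microRNA levels. Beside these, myeloid and hepatocyte marker promoters were mostly without a peak as given above. Whether cell numbers account for it was not tested.

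Ranked by their highest peak among the microRNA genes with any peak, the members compared here kept one order in both libraries. Peaks near protein-coding starts were included for all genes. Mir22 exceeded 98.6% of those genes in replicate 1 and 86.5% in replicate 2, Mir142 78.2% and 71.2%, the Mir144 and Mir451a pair 70.5% and 63.5%, and Mir126a 33.1% and 39.8%. By number of peaks the order was another. The pair was ahead of 98.5% and 97.7% of all microRNA genes, Mir142 of 97.9% and 96.8%, and Mir22 of 96.7% and 97.7%. The pair's count includes the peaks at Eral1 and, in replicate 1, a peak inside a wider one. As separate sites the pair had 7 in replicate 1, as many as Mir142. In replicate 2 the pair and Mir22 had 6 peaks each.

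Member peaks repeated between libraries in 77.8% of cases in replicate 1 and 95.2% in replicate 2, against 64.4% and 82.3% of all peaks. At or above the median value of their library were 25 of 27 member peaks in replicate 1 and 20 of 21 in replicate 2. These shares thus do not compare peaks of like height. Of 19 peaks that overlapped 1 to 1, 17 were lower in replicate 2, and the median log2 ratio, replicate 2 over replicate 1, was -0.80 for them and -0.50 over all 26687 such pairs. High peaks had lower ratios throughout the libraries, so each was also read against a running median of shared peaks of like height. The excess over it had a median of -0.20 among member peaks, and 90% of all pairs lay between -0.67 and 0.65. The start of Mir22hg had a log2 ratio of -1.91 and an excess of -0.65. Below the lower bound were the erythroid site 3145 bases upstream (-0.73) and the Mir22 sites 646 and 3126 bases upstream (-0.68 each), while the erythroid site next to the hairpin was at 0.09. The Mir126a sites, at 0.79 and 0.72, were above the upper bound.

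**Figure D3:**
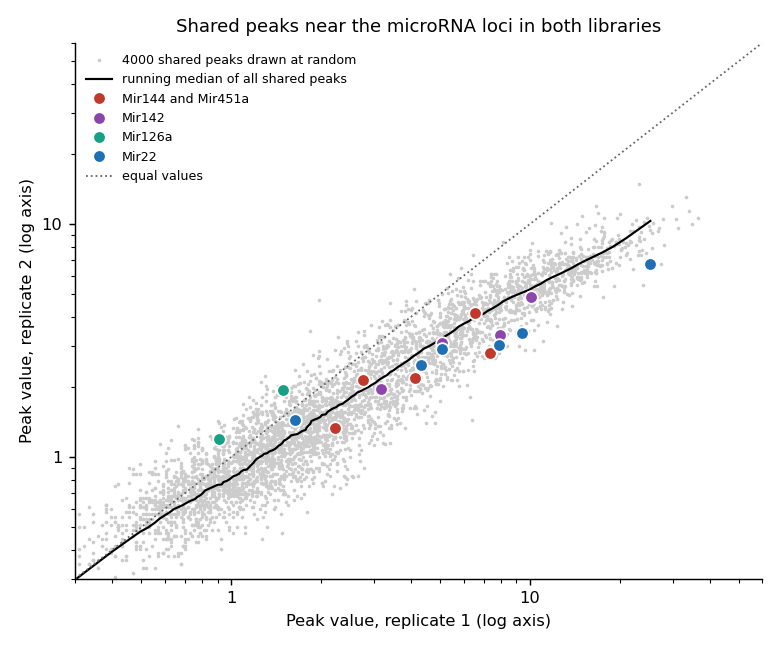
Peak values in replicate 2 against replicate 1 on log axes, for the member peaks outside the Mir150 locus that overlap 1 to 1 (coloured by locus) over shared peaks of all kinds (grey). The black line is the running median and the dotted line marks equal values. The Mir126a sites lie above the dotted line, and the highest Mir22 site lies below the black line.

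Erythroid and liver words were counted in 200-base windows centred on the peaks, on both strands. GATA words (AGATAA or TGATAA) were in 6 of 27 member peaks of replicate 1, or 22.2%, against 15.4% of all its peaks, and in 3 of 21 in replicate 2, or 14.3%, against 12.1%. Those of replicate 1 were at Mir142 and Mir22 as well as at the erythroid pair, and those of replicate 2 at the pair and Mir22. KLF words were in 51.9% against 44.8% in replicate 1 and 71.4% against 43.9% in replicate 2. NFE2 and AP-1 words were in 3 member peaks of each library, 11.1% against 4.96% and 14.3% against 4.42%, all at Mir142 or Mir22. The liver words of FOXA (TGTTTAC), HNF4 (CAAAGTC) and HNF1 (GTTAATN) were in 0 member peaks, but were also rare among all peaks, at 1.91%, 2.29% and 2.39% in replicate 1 and 1.80%, 2.22% and 2.21% in replicate 2. The remaining words were searched in the same way. The E-box (CAGNTG) was below its background in replicate 1, in 37.0% of member peaks against 43.8% of all, and above it in replicate 2, at 47.6% against 41.2%. The MYB word (CAACNG, which overlaps the E-box in some matches) was in 22.2% against 25.9% in replicate 1 and 19.0% against 25.4% in replicate 2. The ETS word (AGGAAGT) was in 11.1% against 5.93% and 9.52% against 4.99%, which is 3 and 2 member peaks. The CEBP word (TTGCNNAA) was in 7.41% against 6.00% and 4.76% against 5.77%. The RUNX word was in 3.70% against 3.92% and 4.76% against 3.19%, and the CTCF core word in 3.70% against 10.3% and 4.76% against 10.1%, each a single member peak per library. Inside footprints widened by 5 bases, KLF words were in 17 of 97 member footprints of replicate 1, or 17.5%, against 13.3% of all its footprints, and in 11 of 82 of replicate 2, or 13.4%, against 10.9%. GATA words were in 3 member footprints of replicate 1, or 3.09%, against 1.17% of all, and in 0 of replicate 2, against 0.698% of all. A word is a description of the sequence and not proof of binding.

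Other microRNA genes give a scale for the members. Of 21 other blood microRNA genes in the annotation, 9 had a peak in both libraries. By mean rank over both libraries the highest were the hypoxia-induced Mir210 (21.3 in replicate 1 and 7.50 in replicate 2), Mir191 (10.3 and 6.03) and the first gene of the miR-17 cluster, Mir17 (5.43 and 3.38), though Mir23a and Mir27a, at 5.47, were above Mir17 in replicate 1, while Mir10a, Mir125b-1 and Mir15a had none. The share was 7 of 11 for broadly expressed genes, led by Mirlet7a-1 (28.1 and 8.10), and 4 of 5 for other hepatic or endothelial genes, of which Mir126b shares the peaks of Mir126a. In that list Mir148a had 7.75 in replicate 1 and 3.22 in replicate 2. Among genes of other tissues it was 6 of 20, led by Mir7-1 (12.6 and 8.26), Mir200c (10.9 and 5.57) and Mir9-3 (1.74 and 1.58), while Mir124a-1, Mir124a-2 and Mir133a-2 had none. Mir7-1 thus stood above the highest Mir142 and erythroid peaks in both libraries, and above Mir22 in replicate 2. Peaks near protein-coding starts were not left out for these lists, whereas the highest Mir142, erythroid and Mir22 peaks lay away from such starts. All 14 genes of the processing machinery had a promoter peak in both libraries, against 53.1% of all protein-coding genes. The highest were Tarbp2 (the Dicer partner, 21.6 and 8.03), Dgcr8 (17.2 and 8.64) and Tnrc6b (a silencing adaptor, 17.6 and 7.58). Ago2, which cuts the miR-451a precursor, had 6.99 and 4.06, and Ago4 had the lowest values, 0.715 and 0.596.

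**Figure D4:**
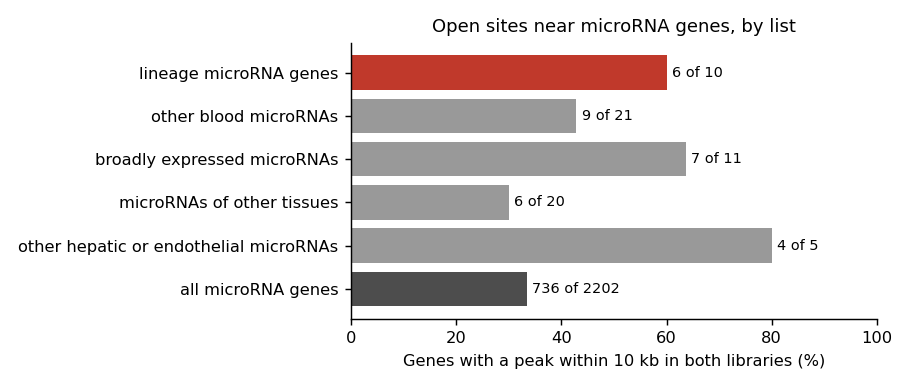
Percent of genes of each list with a peak within 10 kb in both libraries, with the counts at the bars. The members stand at 6 of 10, all microRNA genes at 736 of 2202, and the lists differ in how many of their genes share a locus.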

How the data were processed

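Peak lists, footprints and a cleavage rate table of 2 DNase-seq libraries were analysed as deposited, with positions in mm10. The authors made each from the filtered alignments of its own library, per the file headers and descriptions, so peaks were not pooled. The sources used here name no aligner, peak caller or threshold. Peak values are the authors' depth-normalised signal, which came out as whole multiples of a step, 0.0123 in replicate 1 (no value more than 0.00408 steps off) and 0.0139 in replicate 2 (0.00482 steps). The deposited false discovery rate is of the q-value type, listed only under 0.05. The deposited footprint score is constant at 0.01, and only positions were used.

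From these, peaks of the longer list within 10 kb of each hairpin of GENCODE vM21 were taken. Overlap of at least 1 base counted as shared, and the running median was over 1001 pairs. Protein-coding starts were those of protein-coding transcripts. The 12 motifs were searched in the RefSeq genome sequence. The text names all members, neighbours within 1000 bases of a member peak and most host genes. From each comparison list it names up to 3 genes with the highest peaks and up to 3 without. Among the overlapping genes not described are F630028O10Rik at Mir223, AC157910.3 at Mir122 and Gm20532 at Mir126a. A neighbour of Mir150 is not reported here. Ago2, Ago4, Alb and Afp were named outside this rule after their values were seen. Members and lists were chosen with earlier results of these data known. With 1 group there is no contrast, so no test was made. No source says that the biosamples came from separate embryos, so the spread between replicates may be technical. Alternatives were a window of 5 or 20 kb, the shorter list, the upper 50% of peaks, a 50% overlap, peaks near coding starts left out, false discovery rates under 0.01 and 0.001, and leaving out each replicate. Python 3.11.15, numpy 2.4.6, pandas 2.3.3, scipy 1.17.1, pysam 0.24.0 and matplotlib 3.10.9 were used, and the scripts were tested on simulated data.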

Additional observations from a re-analysis of the deposited data

How the results depend on the processing

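The 6 members with a peak in both libraries were the same with a window of 5 or 20 kb, the shorter list, the upper 50% of peaks and either replicate alone. They were 4 without peaks near protein-coding starts, where Mir150 and Mir126a could give no value in both libraries. At 20 kb, the member peaks numbered 42 in replicate 1 and 38 in replicate 2, with 35 shared, and Mir155 had a peak in replicate 2. The share of all microRNA genes with a peak in both libraries was 22.4% at 5 kb, 46.1% at 20 kb, 26.8% with the shorter list, 24.8% with the upper 50% of peaks and 18.4% without coding starts. It ranged from 34.4% to 39.9% with a replicate left out, since fewer libraries must then agree. Footprints of replicate 2 numbered 53 at 5 kb and 126 at 20 kb. No paired analysis was possible because there is a single group. Depth limits what counts as closed: sites under the authors' threshold are not listed, and the threshold is not known.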
